A study of Mus musculus with 30 samples.

Results

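Polyamines are small, positively charged molecules that bind RNA and DNA and that cells need for growth and protein synthesis. The genes of their synthesis and turnover described here are a fixed set of named genes, chosen with earlier results of these data known, namely *Odc1*, *Sat1*, *Azin1*, *Smox*, *Amd1*, *Srm* and *Sms*. These are 7 of 28586 genes counted in the series.

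The pathway starts from ornithine, which ornithine decarboxylase (*Odc1*) turns into putrescine in the step that limits the rate. ODC protein is held down by antizymes, which bind it and send it to the proteasome, and the antizyme inhibitor encoded by *Azin1* resembles ODC, has no decarboxylase activity and captures antizyme in its place. *S*-adenosylmethionine decarboxylase (*Amd1*) supplies the aminopropyl donor that spermidine synthase (*Srm*) and spermine synthase (*Sms*) add to putrescine and spermidine. In the opposite direction, spermidine/spermine acetyltransferase (*Sat1*) marks polyamines for export or breakdown, and spermine oxidase (*Smox*) turns spermine back into spermidine with release of hydrogen peroxide. *Odc1* and *Sat1* are known as quickly induced genes of growth and stress, and polyamines of the gut are best known from epithelial renewal.

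RNA came from the *muscularis externa* (*ME*), the muscle layer of the small bowel with its nerve plexuses, of male adult mice in 2 fractions. The *RiboTag* fraction is mRNA pulled down with HA-tagged ribosomes (*Rpl22* HA allele) of cells that express the tamoxifen-inducible *Sox10*-iCreERT2, which are enteric glia, and all *RiboTag* groups, naïve mice included, carried both alleles. The second fraction is total *ME* RNA, from *Gfap*-Cre x *Rpl22*-HA mice per the labels for naïve mice and IM3h and from *Sox10*-iCreERT2 x *Rpl22*-HA mice for IM24h and IM72h, so that mouse line and time cannot be told apart between these *ME* groups. The IM groups underwent intestinal manipulation and were sampled after 3 h (IM3h), 24 h (IM24h) or 72 h (IM72h), to be compared with naïve mice. Intestinal manipulation is a surgical model of postoperative ileus in which the opened abdomen gives access to the small bowel and the bowel is rolled with moist swabs. Anaesthesia, analgesia and laparotomy belong to every IM group. The count tables held 3 naïve and 4, 4 and 4 IM3h, IM24h and IM72h *RiboTag* libraries and 3, 3, 4 and 4 *ME* libraries, and the study's legends count its replicates as animals, although no label ties a library to one.

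Levels are given as CPM, counts relative to a fixed library total scaled with TMM factors (a correction for RNA composition), and a gene is said to have risen or fallen only at a Benjamini-Hochberg adjusted p under 0.05 over all genes tested in edgeR's quasi-likelihood test. Libraries came from 3′ ends of transcripts. Levels of different genes are not set against each other, except those of a member and its near-identical copies. In bulk RNA, fewer cells of a type and less RNA per cell cannot be told apart.

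Total counts lay between 3010306 and 7899493 in *RiboTag* libraries and between 6603170 and 12866062 in *ME* libraries. One gene that overlaps ribosomal RNA, *AY036118*, took 2.02% to 13.98% of the counts of naïve and IM3h *RiboTag* libraries, 22.2% to 59.2% at IM24h and 58.0% to 80.1% at IM72h, which left 663808 to 1619377 counts for all other genes at IM72h. In *ME* its share was 16.1% to 33.5% in naïve mice and IM3h and 1.33% to 6.501% at IM24h and IM72h. All 6 glial markers were higher in naïve *RiboTag* than in naïve *ME* RNA, and *Sox10* stood at 486, 1038 and 574 CPM in the naïve *RiboTag* libraries. The glial markers summed to 1558 to 1881 CPM in naïve *RiboTag* and 117 to 139 CPM in naïve *ME* libraries. Smooth muscle markers were lower in *RiboTag* in 5 of 6 but summed to 4879 to 7531 CPM there, against 22070.4 to 23656 CPM in *ME*. The words glia and glial fraction below stand for the *RiboTag* fraction, and the cell source of its RNA was not tested for any member. At IM72h the 4 *RiboTag* libraries held *Sox10* at 11.9, 2.64, 0 and 1.23 CPM, so that the defining marker of the labelled cells was close to absent there.

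The 7 genes lie on 6 chromosomes (GENCODE M21, mm10). *Odc1* is at chr12:17544794-17551505 on the plus strand, *Azin1* at chr15:38487427-38519266 on the minus strand, *Amd1* at chr10:40287458-40302186 on the minus strand and *Srm* at chr4:148591503-148594993 on the plus strand. *Sms* is at chrX:157443855-157492287 and *Sat1* at chrX:155213132-155216449, both on the minus strand, and *Smox* is at chr2:131491496-131525922 on the plus strand. RefSeq promoter sequence (GRCm38.p6) was at hand for 5 of the 7 genes and was searched, in the 250 bases before the RefSeq start and a shorter stretch after it and on both strands, for the E-box CACGTG that Myc and Max bind, for the cAMP response element TGACGTCA and its TGACG part, and for the AP-1 site TGANTCA. The E-box was held by 7.15% of 32851 promoters, the whole cAMP response element by 1.79%, TGACG by 20.8% and the AP-1 site by 7.81%, and a whole element contains TGACG by construction. Matches were found for *Odc1*, *Amd1* and *Sms*, and none for *Sat1*, *Smox* or the second promoter on record for *Sms*. Those of *Amd1* and *Sms* are printed to show the match, in capitals. The *Amd1* match is TGACG read on the other strand at position -60 from the RefSeq start, and the *Sms* match is an E-box at position -196. The *Odc1* match, TGACG at position -79, begins at the first base of *Odc1* in GENCODE and so lies inside that transcript model, and this stretch is not printed. A match is a string of letters and no bound site. The promoters are those at chr10:40302189-40302438 (*Amd1*) and chrX:157492288-157492537 (*Sms*), both on the minus strand.
Amd1 promoter: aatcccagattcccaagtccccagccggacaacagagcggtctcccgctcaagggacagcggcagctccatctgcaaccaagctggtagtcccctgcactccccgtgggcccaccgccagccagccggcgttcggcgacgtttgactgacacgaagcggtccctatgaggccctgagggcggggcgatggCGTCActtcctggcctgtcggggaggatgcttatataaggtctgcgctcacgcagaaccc
Sms promoter: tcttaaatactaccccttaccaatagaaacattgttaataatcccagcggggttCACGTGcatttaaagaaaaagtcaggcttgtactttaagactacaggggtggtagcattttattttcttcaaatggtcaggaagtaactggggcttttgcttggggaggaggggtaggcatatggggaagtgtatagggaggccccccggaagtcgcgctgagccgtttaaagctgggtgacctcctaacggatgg

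In the glial fraction, *Azin1* moved furthest at IM3h. *Azin1* was at 53.1, 78.3 and 71.5 CPM in the naïve *RiboTag* libraries and at 929, 713, 493 and 293 CPM at IM3h. Each IM3h library was above each naïve library. The rise was 9.33-fold (log2 fold change 3.22 ± 0.39 SE, n = 4 against 3, edgeR adjusted p = 0.000349). *Azin1* is also on the gene list of acute gliosis that the study drew from these libraries, so that its rise there is no independent evidence.

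*Odc1*, the enzyme that the antizyme system controls, stood at 29.6, 25.9 and 20.2 CPM in naïve and at 102, 83.1, 60.1 and 20.8 CPM in IM3h *RiboTag* libraries. The first 3 IM3h libraries were above all naïve libraries and the fourth was among them. *Odc1* rose 2.75-fold with an adjusted p just under the threshold (log2 fold change 1.46 ± 0.45 SE, edgeR adjusted p = 0.0497). The fourth IM3h library was also the lowest of the 4 for *Azin1*, *Amd1*, *Srm* and *Sat1*, and it held 15732 genes with at least 1 count against 18549 to 19251 in the other 3.

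Of the 3 genes of the aminopropyl steps, only *Sms* passed the test in glia at IM3h. *Sms* was at 17.5, 16.3 and 16.7 CPM in naïve and at 33.1, 30.1, 31.8 and 39.8 CPM in IM3h libraries, with no overlap, and rose 2.08-fold (log2 fold change 1.06 ± 0.28 SE, edgeR adjusted p = 0.0278). *Amd1* measured 43.3, 61.3 and 71.1 CPM in naïve and 139, 169, 119.6 and 45.3 CPM in IM3h libraries (log2 fold change 1.07 ± 0.39 SE, edgeR adjusted p = 0.0906). It was called with DESeq2 (adjusted p = 0.0383), without the filter on low counts (edgeR adjusted p = 0.047) and without IM3h library 4, the lowest (edgeR adjusted p = 0.00378). *Srm* measured 5.87 to 10.7 CPM in naïve and 4.77 to 21.5 CPM in IM3h libraries (log2 fold change 0.81 ± 0.53 SE, edgeR adjusted p = 0.379). For both genes 3 IM3h libraries were above all naïve libraries and the fourth was not.

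The 2 turnover enzymes moved in opposite directions in glia at IM3h. *Sat1*, the acetyltransferase, stood at 109, 35.4 and 42.0 CPM in naïve and at 147, 187, 164 and 99.8 CPM in IM3h libraries and rose 2.503-fold (log2 fold change 1.32 ± 0.39 SE, edgeR adjusted p = 0.0443). One naïve library, the first, at 109 CPM, lay above the lowest IM3h library, and without it the log2 fold change of *Sat1* was 2.02. *Smox*, the spermine oxidase, stood at 12.2, 16.5 and 10.7 CPM in naïve and at 2.40, 2.96, 5.58 and 3.92 CPM in IM3h libraries, with no overlap. It fell to 0.295 times the naïve level (log2 fold change -1.76 ± 0.52 SE, edgeR adjusted p = 0.0426), and without the filter on low counts this call was lost (adjusted p = 0.0689).

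In all, 4 of the 7 members rose and 1 fell in *RiboTag* at IM3h, where 13.3% of 16053 tested genes were called in either direction, 8.86% as higher and 4.44% as lower. The groups did not overlap for 2 members that were higher and 1 that was lower, against 15.3% and 14.3% of all genes. By an unadjusted p under 0.05 and over 2-fold, the rule the study used, 6 members were called beside 20.7% of all genes. The median log2 fold change was 1.07 over the members and -0.04 over all genes tested. The adjusted p of every called member but *Azin1* lay between 0.0278 and 0.0497. Leaving out IM3h library 1, 2 or 3 left 2, 1 and 1 members called, and leaving out naïve library 1, 2 or 3 also left 2, 1 and 1, with *Azin1* called each time. Without IM3h library 4, 6 members were called. With library totals as scale the calls of *Odc1*, *Sat1* and *Sms* were lost (adjusted p of 0.108, 0.073 and 0.0769), and with *Actb*, *Hsp90ab1* and *Rplp1* as the reference all calls but that of *Azin1* were lost, with *Sms* at 0.62. A single fit over all 15 *RiboTag* libraries called none of the members (*Azin1* adjusted p = 0.127) and 34 genes in all. Markers of other cells moved with this comparison. Those of fibroblasts were lower in 3 of 5 (summed level 215 to 303 CPM against 643 to 756 CPM in naïve mice), those of smooth muscle in 3 of 6 (1933 to 5009 CPM against 4879 to 7531 CPM), and of the 6 glial markers 1 was higher and 2 were lower. Their part in the changes of the members was not tested.

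**Figure D1:**
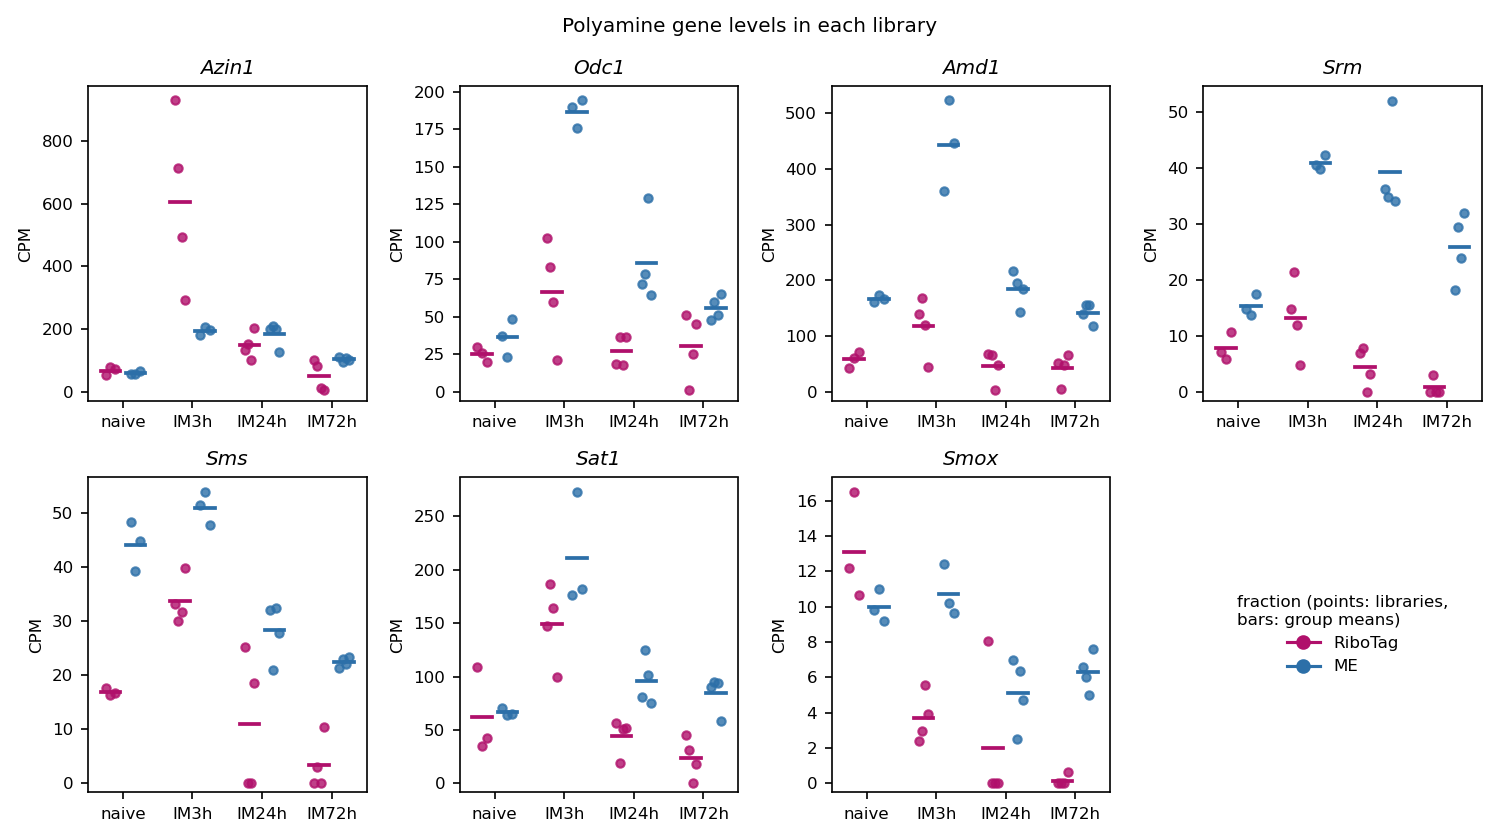
Level in CPM (linear vertical axes, 1 panel per gene) of the 7 polyamine genes in each library of the RiboTag (magenta) and ME (blue) fraction, with bars at group means. In RiboTag, Azin1 ran from 293 to 929 CPM at IM3h against 53.1 to 78.3 CPM in naïve mice, while Smox fell from 10.7 to 16.5 CPM in naïve mice to at most 5.58 CPM at IM3h.

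In the whole muscle layer *Odc1*, *Azin1*, *Amd1*, *Srm* and *Sat1* rose at IM3h. *Odc1* was at 37.1, 23.5 and 48.8 CPM in naïve and at 189.8, 176 and 194 CPM in IM3h *ME* libraries. It rose 5.23-fold, the largest change of a member in this comparison (log2 fold change 2.39 ± 0.21 SE, n = 3 against 3, edgeR adjusted p = 2.31e-05). *Azin1* went from 56.8, 57.0 and 64.6 CPM to 180.1, 208 and 196 CPM, a 3.38-fold rise (log2 fold change 1.76 ± 0.11 SE, edgeR adjusted p = 2.51e-06).

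*Amd1* stood at 161, 174 and 166 CPM in naïve and at 360.0, 523 and 446 CPM in IM3h *ME* libraries and rose 2.74-fold (log2 fold change 1.46 ± 0.14 SE, edgeR adjusted p = 3.17e-05). *Srm* went from 14.9, 13.8 and 17.6 CPM to 40.6, 39.8 and 42.4 CPM, a 2.73-fold rise (log2 fold change 1.45 ± 0.15 SE, edgeR adjusted p = 5.32e-05). *Sat1* went from 70.7, 64.1 and 64.6 CPM to 177, 273 and 182 CPM, a 3.27-fold rise (log2 fold change 1.71 ± 0.16 SE, edgeR adjusted p = 3.82e-05). None of these 5 genes had overlapping groups.

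*Sms* and *Smox*, which both passed the test in glia, did not pass it in *ME* at IM3h. *Sms* measured 39.2 to 48.4 CPM in naïve and 47.7 to 53.9 CPM in IM3h libraries (log2 fold change 0.26 ± 0.12 SE, edgeR adjusted p = 0.141). *Smox* measured 9.20 to 11.0 CPM in naïve and 9.64 to 12.4 CPM in IM3h libraries (log2 fold change 0.16 ± 0.22 SE, edgeR adjusted p = 0.594). The signs of both changes turned under scaling by library totals or by *Actb*, *Hsp90ab1* and *Rplp1*.

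In *ME* at IM3h, 5 of 7 members rose and none fell, where 32.7% of 15333 tested genes were called, 19.3% as higher and 13.4% as lower. The groups did not overlap for 6 members, all higher, against 25.3% higher and 22.7% lower over all genes, and *Sms* is among the 6 only when the libraries of these 2 groups are scaled alone. The rule of the study called the same number of members, 5, beside 18.5% of all genes. The median log2 fold change was 1.46 over the members and 0.00 over all genes tested. Markers of monocytes and neutrophils moved with this comparison, with 4 of 6 higher and a summed level of 37.2 to 48.0 CPM at IM3h against 10.2 to 12.1 CPM in naïve mice, and their part in the rise of the members was not tested. Those of macrophages, 1 higher and 2 lower of 6, summed to 103 to 121 CPM at IM3h against 146 to 156 CPM in naïve mice. Fibroblast markers were lower in 4 of 5, with sums of 882 to 989 CPM against 1952 to 2067 CPM. None of 6 epithelial markers was called, with sums of 170.1 to 1026 CPM against 107 to 296 CPM, and 2 of 6 markers of proliferating cells were higher, with sums of 30.1 to 32.7 CPM against 14.2 to 25.0 CPM. Of the 6 glial markers 2 were higher and 2 lower. The part of these cells was not tested either.

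**Figure D2:**
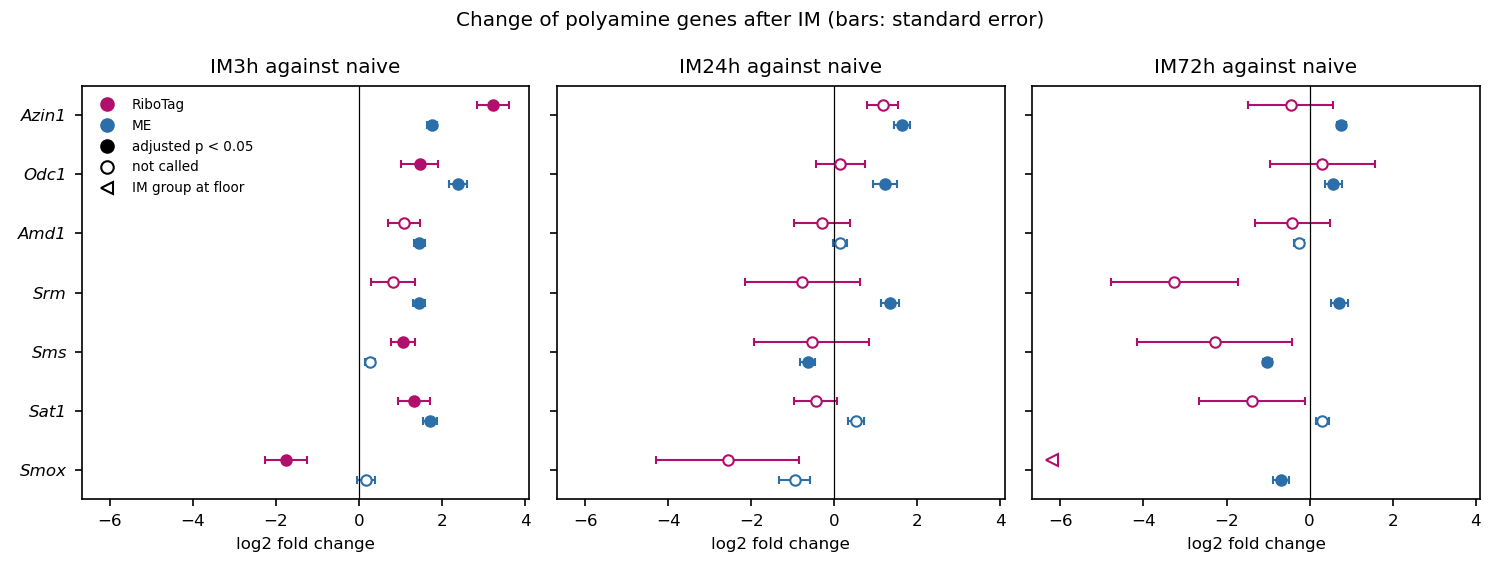
Log2 fold change against naïve mice (horizontal axes, points with standard error) of the 7 polyamine genes in RiboTag (magenta) and ME (blue) at IM3h, IM24h and IM72h, filled where edgeR's adjusted p was under 0.05. At IM3h 5 genes are called in each fraction, with Azin1 at 3.22 in RiboTag and Odc1 at 2.39 in ME as the largest rises, and the triangle marks Smox at IM72h in RiboTag, where the IM libraries held at most 1 count and the fitted value is no measure of size although the gene was called.

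The difference between the responses of the 2 fractions was tested as the interaction of fraction and treatment. The *ME* and *RiboTag* mice of the IM3h test were of different lines, so that fraction and line cannot be told apart in it. At IM3h none of the 7 members was called, where 1.66% of 17617 genes were called, 0.959% as higher and 0.698% as lower, although 3 members had an unadjusted p under 0.05 and DESeq2 called 2. The response of *Azin1* was 1.55 ± 0.42 (SE, log2) larger in *RiboTag* than in *ME* (edgeR adjusted p = 0.0779). Without the fourth IM3h *RiboTag* library it was 1.79 (adjusted p = 0.00536), and it was called by DESeq2 (adjusted p = 0.0156). *Smox* differed by -1.83 ± 0.55 (edgeR adjusted p = 0.111, DESeq2 adjusted p = 0.0192) and *Sms* by 0.89 ± 0.28 (edgeR adjusted p = 0.132). *Odc1* and *Sat1* differed by -0.85 ± 0.55 and -0.30 ± 0.48, with edgeR adjusted p of 0.538 and 0.862. The rule of the study called 2 members here and 11.2% of all genes.

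In naïve mice, *Amd1* and *Sms* were lower in the glial fraction than in *ME*. *Amd1* was at 0.450 times and *Sms* at 0.489 times the *ME* level (log2 fold changes -1.15 ± 0.20 and -1.03 ± 0.20 SE, edgeR adjusted p = 0.00355 and 0.00613, n = 3 against 3). These 2 of 7 members stand beside 26% of 14753 genes called, 13.4% as higher and 12.7% as lower. The groups did not overlap for 2 members that were higher (*Azin1* and *Smox*) and 3 that were lower (*Amd1*, *Srm* and *Sms*), against 23% and 24.8% of all genes, and the rule of the study called 2 members and 25.6% of all genes. *Odc1*, *Sat1*, *Azin1*, *Smox* and *Srm* had log2 differences between -0.61 and 0.75 and did not pass the test. With library totals as scale both calls were lost (*Amd1* at -0.40 and *Sms* at -0.31, adjusted p of 0.214 and 0.358), and *Azin1* (1.28, adjusted p = 0.00363) and *Smox* (1.502, adjusted p = 0.00708) were called higher instead. With the reference genes the call of *Amd1* was lost (-1.02, adjusted p = 0.0617). *Amd2*, a near-identical copy of *Amd1* treated below, was at -4.12 ± 0.52 (SE, log2) in this comparison (edgeR adjusted p = 0.000901). With the counts of both summed the difference was -1.71 (edgeR adjusted p = 0.00106). The 2 naïve groups came from different mouse lines, so that fraction and line cannot be told apart here.

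At IM24h no member was called in the glial fraction. *Azin1* was at 135, 154, 102 and 202 CPM, all above the naïve libraries, but its 2.24-fold difference did not pass the test (log2 fold change 1.16 ± 0.38 SE, edgeR adjusted p = 0.169), and under scaling by *Actb*, *Hsp90ab1* and *Rplp1* it was -0.36. *Odc1* measured 17.7 to 36.7 CPM, *Sat1* 19.2 to 56.4 CPM and *Amd1* 3.99 to 67.0 CPM. *Smox* had 64 counts (8.06 CPM) in 1 library and none in the other 3, and *Sms* had none in 2 of the 4 libraries, in which *AY036118* took 59.2% and 58.1% of the counts. EdgeR called 0 of 7 members and DESeq2 also 0, with 1 at an unadjusted p under 0.05, while 0.497% of 15304 genes were called. The rule of the study called 1 member and 12.5% of all genes. The groups did not overlap for *Azin1*, which was higher, and *Smox*, which was lower, against 6.97% and 14.2% of all genes. Of 6 markers each, 3 of smooth muscle were lower, summing to 1323 to 3948 CPM against 4879 to 7531 CPM, and 1 of proliferating cells was higher, at 62.8 to 248 CPM against 17.8 to 28.6 CPM. None of the 6 glial markers was called, with sums of 776 to 923 CPM against 1558 to 1881 CPM. None of monocytes and neutrophils was called either, with sums of 38.4 to 100.1 CPM against 7.68 to 8.64 CPM. The part of these cells in the levels of the members was not tested.

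From IM3h to IM24h, *Azin1* and *Sat1* fell in the glial fraction. *Azin1* fell by 1.96 ± 0.39 (SE, log2, edgeR adjusted p = 0.0247) and *Sat1* by 1.68 ± 0.39 (adjusted p = 0.0472), and the 2 groups of 4 libraries did not overlap for either gene. These 2 of 7 members compare with 1.9% of 14193 genes called, 0.965% as higher and 0.937% as lower. By the rule of the study 3 members were called beside 14.1% of all genes, and 3 members lay below without overlap and none above, against 10.5% and 4.92%. Leaving out IM24h library 2 or 4 or IM3h library 1, 2 or 3 took both calls away and left *Azin1* at -2.16 to -1.71 and *Sat1* at -1.77 to -1.45. The *Sat1* call was also lost without IM24h library 3 or IM3h library 4, at -1.75 and -1.88. Both calls were lost with library totals (adjusted p of 0.0507 and 0.0911), with the reference genes (0.0672 and 0.117) and with 1 fit per fraction (0.226 and 0.394). Of 6 markers each, 1 of glia was lower and 1 each of macrophages, of monocytes and neutrophils and of proliferating cells was higher, and their part in these changes was not tested.

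At IM72h the *RiboTag* libraries were shallow outside *AY036118*, and 1 of 6 glial markers was called lower there (median log2 fold change -2.77 over the 6, summed level 144 to 1461 CPM against 1558 to 1881 CPM in naïve mice, with no marker at 0 in every library). Of 6 smooth muscle markers 1 was lower, with sums of 1995 to 8587 CPM against 4879 to 7531 CPM. Of 6 markers each, 1 of macrophages and 1 of proliferating cells were higher, summing to 219 to 472 CPM against 76.2 to 154 CPM and to 153 to 387 CPM against 17.8 to 28.6 CPM, and 1 of each list was at 0 in every IM72h library. The part of this in the levels of the members was not tested. *Smox* had 0, 0, 0 and 1 counts in the 4 IM72h libraries against 332 counts in the 3 naïve ones. It fell (edgeR adjusted p = 0.0397, n = 4 against 3), with a naïve to IM72h ratio of 92.9 and an exact 95% counting interval of 16.6 to 3682 that covers counting error only. The call was lost without naïve library 1, 2 or 3 (adjusted p of 0.112, 0.117 and 0.143).

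No other member passed the test in the *RiboTag* fraction at IM72h, where 16.1% of 13572 genes were called, 1.05% as higher and 15.1% as lower, and the median over all genes was -0.40. *Srm* had 0, 7, 0 and 0 counts against 52 to 90 in naïve libraries (log2 fold change -3.25 ± 1.54 SE, edgeR adjusted p = 0.255), and without the library with 7 counts, the second, it was called lower (adjusted p = 0.019). *Azin1* measured 102, 82.3, 10.6 and 4.92 CPM, 2 libraries above and 2 below all naïve ones. *Odc1* measured 50.9, 0.880, 25.0 and 44.9 CPM (log2 fold change 0.31 ± 1.27 SE), a sign that turned to -1.45 with library totals as scale. The transcript with the most *Odc1* counts in this fraction, *Odc1-205*, held 78.7% of the naïve and 6.23% of the IM72h counts of the gene. For *Azin1* that transcript, *Azin1-201*, held 85.2% and 19.9%, and the cause was not tested. *Sat1* and *Sms* measured 0 to 45.6 CPM and 0 to 10.5 CPM. The IM72h groups of *Smox*, *Srm* and *Sms* lay below all naïve libraries, as those of 28.1% of all genes did, and no member lay above, against 2.85% of all genes. The rule of the study called 1 member and 22.5% of all genes.

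In *ME* at IM24h, *Azin1*, *Srm* and *Odc1* stayed above naïve mice while *Sms* fell. *Azin1* was at 200.1, 210.2, 201 and 128 CPM, a 3.10-fold rise (log2 fold change 1.63 ± 0.20 SE, n = 4 against 3, edgeR adjusted p = 0.000345). *Srm* was at 36.3, 34.9, 52.1 and 34.2 CPM, a 2.54-fold rise (log2 fold change 1.34 ± 0.21 SE, edgeR adjusted p = 0.00131). For both genes each IM24h library was above each naïve library. *Odc1* was at 72.1, 78.4, 129 and 64.5 CPM, a 2.33-fold rise (log2 fold change 1.22 ± 0.30 SE, edgeR adjusted p = 0.0121) that lost its call without naïve library 1 (log2 fold change 1.22) or 2 (log2 fold change 0.97).

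*Sms*, which makes spermine from the spermidine that *Srm* yields, was at 32.1, 20.9, 32.4 and 27.8 CPM in *ME* at IM24h and fell to 0.639 times the naïve level (log2 fold change -0.65 ± 0.19 SE, edgeR adjusted p = 0.0281). All 4 libraries were below the naïve ones. The call was lost without naïve library 1 (log2 fold change -0.59) or 3 (log2 fold change -0.64). *Sat1*, at 75.1 to 125 CPM, and *Smox*, at 2.502 to 6.97 CPM, lay above and below all naïve libraries without passing the test (log2 fold changes 0.52 ± 0.19 and -0.96 ± 0.37 SE, edgeR adjusted p = 0.0671 and 0.0801). *Sat1* was called without IM24h library 4 (log2 fold change 0.62, edgeR adjusted p = 0.0177) and with library totals (1.15, adjusted p = 0.00151). *Smox* was called with 1 fit per fraction (-0.95, edgeR adjusted p = 0.0208). *Amd1* was back at 143 to 216 CPM and did not pass the test (edgeR adjusted p = 0.543). With library totals it was called higher (log2 fold change 0.79, edgeR adjusted p = 0.00644). These 3 rises and 1 fall among 7 members stand beside 29% of 16328 genes called, 15.6% as higher and 13.4% as lower. The groups did not overlap for 4 members that were higher and 2 that were lower, against 20.2% and 20.7% of all genes, and the rule of the study called 3 members and 23.4% of all genes.

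At IM72h *Azin1*, *Srm* and *Odc1* were still above naïve *ME*, and *Sms* and *Smox* were below. *Azin1* stood at 111, 94.2, 108 and 100.2 CPM, a 1.70-fold rise (log2 fold change 0.76 ± 0.11 SE, edgeR adjusted p = 0.000198), and *Srm* at 18.2, 29.5, 24.004 and 31.9 CPM, a 1.64-fold rise (log2 fold change 0.71 ± 0.20 SE, edgeR adjusted p = 0.0102). *Odc1* stood at 47.7, 60.1, 51.3 and 65.1 CPM, a 1.49-fold rise (log2 fold change 0.58 ± 0.21 SE, edgeR adjusted p = 0.0352). Its groups overlapped in 1 library, and it lost its call without IM72h library 2 or 4 or naïve library 1 or 2 (log2 fold changes 0.55, 0.49, 0.58 and 0.36).

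*Sms* stood in *ME* at IM72h at 21.3, 23.0, 22.0 and 23.3 CPM against 48.4, 39.2 and 44.8 CPM in naïve mice. It fell to 0.495 times the naïve level (log2 fold change -1.01 ± 0.12 SE, edgeR adjusted p = 3.49e-05). *Smox*, at 4.98 to 7.61 CPM, fell to 0.621 times the naïve level (log2 fold change -0.69 ± 0.20 SE, edgeR adjusted p = 0.0124). *Sat1* (58.6 to 94.6 CPM) and *Amd1* (117 to 156 CPM) did not pass the test, with edgeR adjusted p of 0.129 and 0.093. *Sat1* was called higher without IM72h library 4 (log2 fold change 0.45, edgeR adjusted p = 0.00265) and with library totals (0.91, adjusted p = 0.00127). *Amd1* was called lower with *Actb*, *Hsp90ab1* and *Rplp1* as the reference (-0.87, adjusted p = 0.000477). The 5 members called compare with 57.5% of 16592 genes called, 29.3% as higher and 28.3% as lower, and against that background the count says little about the members. The groups did not overlap for 2 members that were higher and 3 that were lower, against 30% and 28.7% of all genes, and the rule of the study called 1 member and 32.8% of all genes.

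The scale mattered for the later *ME* groups. The median log2 change of all genes was 0.02 at both times with TMM, 0.66 and 0.62 at IM24h and IM72h with library totals, and -0.35 and -0.58 with *Actb*, *Hsp90ab1* and *Rplp1* as the reference. At IM72h *Odc1* was then at 1.15 and -0.02, *Azin1* at 1.36 and 0.15, *Srm* at 1.30 and 0.13, *Smox* at -0.08 and -1.28 and *Sms* at -0.42 and -1.62. With the reference genes *Odc1*, *Azin1* and *Srm* lost their calls there (edgeR adjusted p = 0.95, 0.396 and 0.69), and *Amd1* was called lower. With library totals *Smox* lost its call (edgeR adjusted p = 0.744), and *Sat1* was called higher. At IM24h *Sms* was at -0.01 with library totals and lost its call (edgeR adjusted p = 0.977). With the reference genes the calls of *Odc1* (0.83, adjusted p = 0.162), *Srm* (0.97, adjusted p = 0.0706) and *Sms* (-1.01, adjusted p = 0.0613) were lost at IM24h. The mouse line and the *AY036118* share changed together with these groups. Macrophage markers were higher in 4 of 6 at IM24h and in 6 of 6 at IM72h, summing to 347 to 451 CPM and 752 to 1048 CPM against 146 to 156 CPM in naïve mice. Monocyte and neutrophil markers were higher in 6 of 6 at both times, with sums of 198 to 358 CPM and 88.3 to 120.4 CPM against 10.2 to 12.1 CPM. Those of proliferating cells were higher in 3 and 6 of 6, with sums of 66.0 to 97.8 CPM and 299 to 375 CPM against 14.2 to 25.0 CPM. Smooth muscle markers were lower in 5 of 6 at IM24h and in 3 of 6 at IM72h, with sums of 3157 to 10774 CPM and 12339 to 20479 CPM against 22070.4 to 23656 CPM. The part of these cells in the levels of the members was not tested.

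From IM24h to IM72h, *Azin1*, *Odc1* and *Srm* fell in *ME*, by 0.88 ± 0.17, 0.65 ± 0.22 and 0.64 ± 0.21 on the log2 scale (SE, n = 4 against 4, edgeR adjusted p = 0.00217, 0.0338 and 0.0316). The other 4 members did not pass the test, and 38.5% of 16281 genes were called, 18.6% as higher and 19.9% as lower. With these 8 libraries scaled alone, the groups did not overlap for the same 3 genes, against 18.5% of all genes lower and 20.6% higher, and the rule of the study called none of them beside 25.2% of all genes. The calls of *Odc1* and *Srm* were lost without IM24h library 3, where they changed by -0.41 and -0.49, and without IM72h library 1, 2 or 3 (-0.66 to -0.58 and -0.68 to -0.50). Both were also lost with the reference genes (adjusted p of 0.0666 and 0.0874) and without the filter (0.0556 and 0.0536). Monocyte and neutrophil markers were lower in 5 of 6 from IM24h to IM72h, while those of proliferating cells were higher in 5, of macrophages in 4 and of glia, smooth muscle and epithelium in 3 of 6 each, and of fibroblasts in 3 of 5. Their part in the changes of the members was not tested. *Sms* measured 20.9 to 32.4 CPM and 21.3 to 23.3 CPM at the 2 times and was called lower without IM24h library 2 (edgeR adjusted p = 0.0207). *Amd1* was called lower with DESeq2 (adjusted p = 0.0326), with library totals (edgeR adjusted p = 0.0476) and without IM24h library 3 (edgeR adjusted p = 0.0247).

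Between the fractions, *Smox* was the only member whose response differed at IM72h (edgeR adjusted p = 0.00206), where 23.3% of 16527 genes were called, 2.15% as higher and 21.1% as lower in *RiboTag*. The rule of the study called 2 members and 33.2% of all genes. At IM24h and IM72h the naïve and IM mice of the *ME* response were of different lines. Line and time cannot be told apart in these tests. *Srm* had an edgeR adjusted p of 0.0586 and was called without any 1 of the IM72h *RiboTag* libraries 1 to 4 (adjusted p of 0.0363, 8.21e-05, 0.0452 and 0.0399) and by DESeq2. At IM24h edgeR called 0 of 7 members and DESeq2 0, with 0 at an unadjusted p under 0.05, and 0.537% of 17508 genes were called, 0.274% as higher and 0.263% as lower, and 13.1% by the rule of the study, with no member. *Smox* was called there without IM24h *RiboTag* library 1, which held all its counts at that time (adjusted p = 0.0067).

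*Amd1* has a near-identical copy, *Amd2*, with 99.56% identity over 3202 transcript bases, and reads cannot be assigned safely between them. *Amd2* (chr10:35708675-35711892, minus strand) was at 112, 46.5 and 128 CPM in naïve *ME* and at 175, 175 and 165 CPM at IM3h. At IM24h it was at 11.1, 14.8, 53.6 and 80.3 CPM, and at IM72h at 15.5, 18.7, 16.8 and 3.25 CPM. Each IM72h library was below each naïve one. With the counts of both summed as 1 gene, a choice made after seeing the data, the rise at IM3h remained (log2 fold change 1.27, edgeR adjusted p = 7.62e-05). The summed gene was lower at IM72h (log2 fold change -0.78, edgeR adjusted p = 0.00115), where *Amd1* alone was at -0.26 and did not pass the test. From IM24h to IM72h in *ME* the summed gene was called lower (log2 fold change -0.56, edgeR adjusted p = 0.0156). One IM72h *RiboTag* library held *Amd2* at 240.1 CPM against 0 to 13.4 CPM in the other 3. The pseudogene *Amd-ps3* (99.9% over 1005 bases) held 1948 counts in *RiboTag* and 1364 in *ME* against 7797 and 27325 for *Amd1*. A pseudogene, *Sms-ps*, matched *Sms* at 100% over 1101 bases and held 254 counts in *RiboTag* and 831 in *ME* against 2186 and 4324 for *Sms*. The copies of *Odc1* on record had few counts, at most 172 against 4244 in *RiboTag*.

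**Figure D3:**
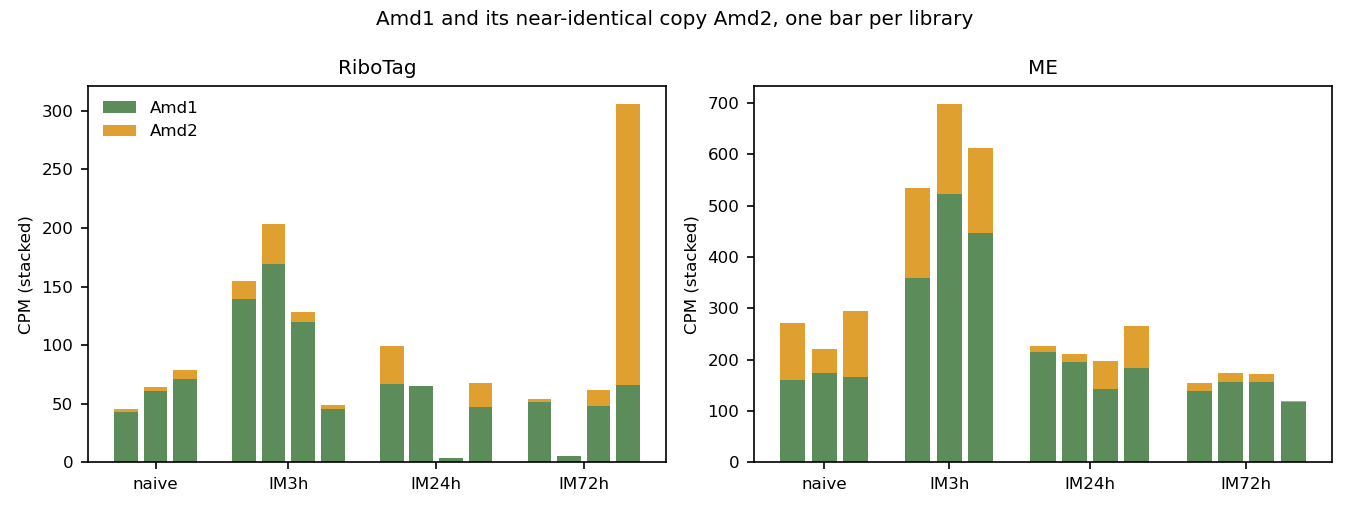
Level in CPM of Amd1 (green) and of its copy Amd2 (orange), stacked, with 1 bar per library in the RiboTag (left) and ME (right) fraction. In ME the Amd2 share is large in naïve and IM3h libraries and small at IM72h, and 1 RiboTag IM72h library holds Amd2 at 240.1 CPM.

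The genes around the pathway were read from lists that name no member. Of 8 genes of ornithine and arginine supply, 1 rose in *RiboTag* and 2 of 7 tested rose in *ME* at IM3h, with list medians of -0.12 and 0.61 on the log2 scale. Over all genes 8.86% and 19.3% were called higher and 4.44% and 13.4% lower in these comparisons, which is the background of every list count at IM3h. The gene called in both was *Slc7a1*, the main arginine transporter of many cells, which went from 37.7, 26.9 and 22.1 CPM to 85.5, 135, 121 and 95.9 CPM in glia (3.97-fold, log2 fold change 1.99 ± 0.29 SE, edgeR adjusted p = 0.00119). In *ME* it went from 19.7, 21.5 and 24.2 CPM to 78.9, 92.7 and 76.8 CPM (log2 fold change 1.97 ± 0.14 SE, edgeR adjusted p = 5.21e-06). *Oat*, which interconverts ornithine and proline precursors in mitochondria, rose in *ME* by 0.61 ± 0.10 (SE, log2, edgeR adjusted p = 0.00159).

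Of the supply list, 3 genes rose and 1 fell in *ME* at IM24h and 5 rose at IM72h, with medians of 0.55 and 0.89, where 15.6% and 29.3% of all genes were called higher and 13.4% and 28.3% lower. None of 8 and 7 tested was called in *RiboTag* at IM24h or IM72h, with medians of -0.70 and 0.13. For this and the next lists, the *RiboTag* background was 0.366% of all genes higher and 0.131% lower at IM24h and 1.05% and 15.1% at IM72h, with medians over all genes of -0.11 and -0.40.

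Of the 8 genes of the methionine and methylthioadenosine cycle, which feeds *Amd1* and recycles its by-product, 1 rose in *RiboTag* at IM3h, and 1 rose and 3 fell in *ME*, with medians of -0.70 and -0.49. *Mat2a*, which makes *S*-adenosylmethionine, was the gene that rose in both. It went from 276, 201 and 221 CPM to 722, 999.6, 617 and 281 CPM in glia (log2 fold change 1.55 ± 0.37 SE, edgeR adjusted p = 0.0168) and from 184, 202 and 210.0 CPM to 418, 540.2 and 465 CPM in *ME* (1.30 ± 0.12, adjusted p = 3.13e-05). *Mat2b*, its regulatory subunit, and *Adi1* and *Mtap* of the salvage arm fell in *ME* by 1.19, 0.998 and 0.47 on the log2 scale. In *ME* 1 rose and 3 fell at IM24h, and 1 rose and 4 fell at IM72h, with medians of -0.09 and -0.56. In *RiboTag* none was called at IM24h and 3 of 7 tested fell at IM72h, with medians of -1.55 and -1.24, where 15.1% of all genes fell.

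Of 4 genes of the antizyme family, none was called in *ME* at IM3h (median 0.11) and 1 fell in *RiboTag* (median -0.20). *Oaz1*, the main antizyme, measured 199 to 225 CPM in naïve and 180.3 to 227 CPM in IM3h glial libraries (log2 fold change 0.03 ± 0.21 SE, edgeR adjusted p = 0.964). *Oaz2* went from 184, 177 and 183 CPM to 109.6, 102, 102 and 97.9 CPM in glia, with no overlap (log2 fold change -0.76 ± 0.20 SE, edgeR adjusted p = 0.0277). In *ME* 1 antizyme gene fell at IM24h and 1 rose at IM72h, with medians of -0.44 and -0.16. None was called in *RiboTag* at either time, with medians of -0.17 and 1.29.

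Of 6 genes of polyamine transport, 4 were tested in *RiboTag* and 5 in *ME*, and 1 and 2 rose at IM3h, with medians of 0.00 and 0.29. *Atp13a3*, a transport ATPase linked to polyamine uptake, rose in both, from 32.0, 28.7 and 29.3 CPM to 59.2, 102, 86.3 and 69.6 CPM in glia (log2 fold change 1.46 ± 0.27 SE, edgeR adjusted p = 0.00473) and by 1.21 ± 0.14 (adjusted p = 0.000121) in *ME*. *Slc3a2*, the heavy chain of several amino acid exchangers, rose in *ME* by 1.62 ± 0.13 (SE, log2, edgeR adjusted p = 9.85e-06). None was called in *ME* at IM24h (median 0.08) or in *RiboTag* at IM24h (median -1.50), and 1 fell at IM72h in each, with medians of -0.33 in *ME* and 0.34 in *RiboTag*.

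Of 5 other breakdown enzymes, 1 fell in *RiboTag* and none was called in *ME* at IM3h, with medians of -0.89 and -0.06. The gene was *Aldh2*, a mitochondrial aldehyde dehydrogenase, which went from 114, 144 and 107 CPM to 43.8, 60.2, 39.1 and 44.7 CPM in glia (log2 fold change -1.31 ± 0.24 SE, edgeR adjusted p = 0.00452). In *ME* 1 fell at IM24h and 2 rose and 2 fell at IM72h, with medians of -0.80 and -0.48. In *RiboTag* none of 3 tested was called at IM24h and 1 of 4 fell at IM72h, with medians of -2.66 and -2.41.

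Hypusination is the one known protein modification made from spermidine, on the translation factor eIF5A. Of its 4 genes none was called in *RiboTag* and 1 rose in *ME* at IM3h, with medians of 0.87 and 0.21. *Eif5a* rose in *ME* by 0.56 ± 0.10 (SE, log2, edgeR adjusted p = 0.00232). In *ME* 1 rose and 1 fell at IM24h and 1 fell at IM72h, with medians of 0.30 and -0.18. In *RiboTag* none of 3 tested was called at IM24h and 1 of 3 fell at IM72h, with medians of 0.29 and -2.39.

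Of 4 regulators known to act on *Odc1* or *Sat1*, 2 rose in *RiboTag* and 4 in *ME* at IM3h, with medians of 1.55 and 1.88, beside 8.86% and 19.3% of all genes called higher. *Myc*, which drives *Odc1* transcription in many cells, was at 0, 0.113 and 1.66 CPM in naïve and at 45.8, 39.5, 32.9 and 28.5 CPM in IM3h glial libraries (log2 fold change 5.98 ± 0.82 SE, edgeR adjusted p = 0.000734). In *ME* it went from 2.90, 0.646 and 1.94 CPM to 27.6, 50.2 and 18.8 CPM (4.07 ± 0.45, adjusted p = 9.63e-05). *Nfe2l2*, the oxidative stress factor NRF2, rose by 1.39 ± 0.35 (adjusted p = 0.0202) in glia and by 1.92 ± 0.10 (adjusted p = 8.77e-07) in *ME*, and *Crem* and *Max* rose in *ME* by 1.84 ± 0.20 and 0.92 ± 0.13 (SE, log2, edgeR adjusted p = 8.01e-05 and 0.000559). In *ME* 3 of the 4 rose at IM24h and 1 at IM72h, with medians of 0.84 and 0.44, and none of 4 and 3 tested was called in *RiboTag* at those times, with medians of 0.58 and 0.70.

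**Figure D4:**
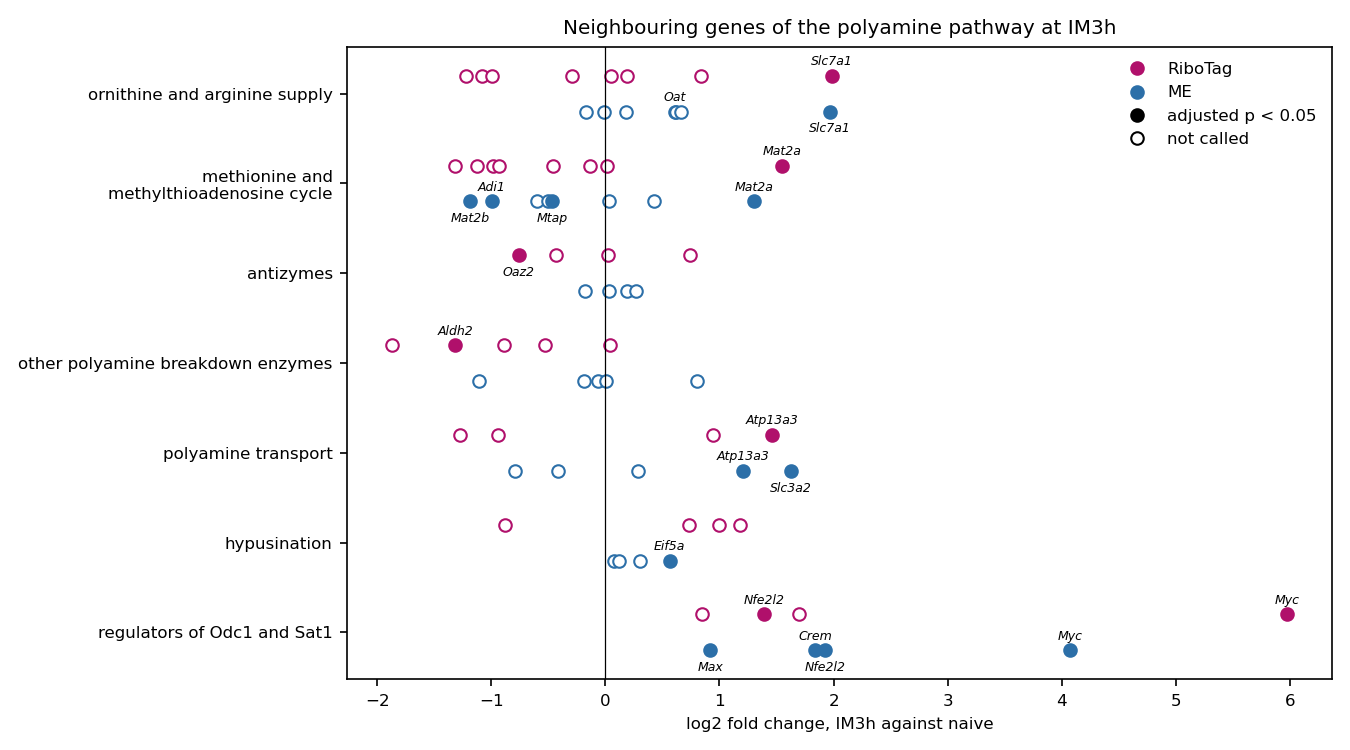
Log2 fold change at IM3h against naïve mice (horizontal axis) of each tested gene of the 7 neighbouring lists (rows) in RiboTag (magenta) and ME (blue), filled and named where edgeR's adjusted p was under 0.05. Slc7a1 (1.99 and 1.97), Mat2a, Atp13a3, Nfe2l2 and Myc (5.98 and 4.07) are filled in both fractions.

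Likeness of pattern was read as Pearson's r of log2 CPM across the libraries of a fraction, which share time points and depth differences, and is a description. Over the 14 *ME* libraries and 9181 genes, *Odc1* was most like *Nfil3* (r = 0.972), *Cebpd* (0.967) and *Hbegf* (0.965), and *Sat1* most like *Ppp1r15a* (0.963), *Kdm6b* (0.957) and *Nfkbia* (0.956). Among the 5 other members with a mean of at least 10 CPM in *ME*, *Odc1* was nearest to *Srm* (0.872), *Azin1* (0.838) and *Sat1* (0.834) and least near to *Sms* (0.356). Over the 15 *RiboTag* libraries and 8169 genes, *Odc1* was most like *Ptp4a1* (0.899), *Nars* (0.895) and *Pnmal2* (0.882), and *Sat1* most like *Ndst1* (0.975), *Ano6* (0.967) and *Pmepa1* (0.959). Of the 4 other members above that mean there, *Odc1* was nearest to *Amd1* (0.766), and its r with *Azin1* (0.282) and *Sat1* (0.224) was lower than in *ME*.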

How the data were processed

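The libraries are 3′ mRNA libraries of small bowel *ME*. The submitters' processing notes name cutadapt, STAR, Partek and the mm10 build, with no versions. The authors deposited estimated counts (expected counts) per transcript or gene that are not scaled for library size, and they list only features with a total of at least 10. The 4 tables of the authors' own comparisons (fold changes and p-values) were not used. The members and lists were chosen with earlier results of these data known.

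Counts of all transcripts with 1 symbol were added up per gene and then rounded to whole numbers. Libraries were grouped by the group entry of the tables, since their names match no single sample. The 3 naïve *RiboTag* libraries (the labels list 4 samples) are identical in the 3 *RiboTag* tables and serve all comparisons with naïve mice, which therefore share them. Total counts ran from 3010306 to 12866062.

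Each comparison was fitted in edgeR 4.0.16, run in R 4.3.3 beside limma 3.58.1, with TMM scaling, filterByExpr and the two-sided quasi-likelihood test on the 2 groups alone, and the interaction of fraction and time used both fractions. The standard error is the log2 fold change divided by the root of F. Levels are CPM on TMM-scaled totals of all libraries of a fraction. For likeness the prior count on the log2 scale was 2, over genes with a mean of at least 10 CPM. Floors of 3 counts and counting intervals cover counting error only. Copies of a member were found by alignment of GENCODE M21 transcripts. Some genes of the lists are not reported here. Genes were named by rule: the members, list genes called at IM3h, and the 3 genes most like *Odc1* and *Sat1*. *Oaz1*, *Amd2* and *AY036118* are named outside the rule, chosen after their values were seen. Alternatives were DESeq2 1.42.0, its size factors, library totals, scaling by *Actb*, *Hsp90ab1* and *Rplp1*, no filter, no rRNA-related genes, the threshold of the study (unadjusted p under 0.05 and over 2-fold), the *ME* transcript table, 1 fit per fraction, each library left out, and *Amd1* and *Amd2* summed. The fits were tested on simulated data.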

Additional observations from a re-analysis of the deposited data

Results flagged for a closer look

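In 7 of 35 sets of 1 member in 1 group of 4 libraries, the highest or lowest library lay far from the others by Dixon's ratio (its gap to the nearest library divided by the range of the group). The limit used marks about 1 in 20 sets of normally distributed values. CPM with several zeros are no such values, so 7 of 35 cannot be set against that share. In *ME*, *Azin1* at IM24h had 1 library at 128 CPM (ratio 0.876), *Srm* at IM24h had 1 at 52.1 CPM (0.886) and *Sat1* at IM72h had 1 at 58.6 CPM (0.866). In *RiboTag*, *Sat1* at IM24h had 1 library at 19.2 CPM (0.843). For *Smox* at IM24h (8.06 CPM) and IM72h (0.616 CPM) and *Srm* at IM72h (3.08 CPM) 1 *RiboTag* library held all the counts of the group, so that the ratio was 1.

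The response of *Smox* to IM differed between the fractions at IM72h, with a fitted log2 difference of -5.91 (*RiboTag* minus *ME*, edgeR adjusted p = 0.00206). The 4 *RiboTag* libraries held 1 count in all, so that the size of this value depends on the prior count. The *ME* response in it compares mice of different lines.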

How the results depend on the processing

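No paired analysis was possible because the libraries in the tables carry no replicate number. Over all alternatives, 1359 values kept direction and side of the threshold (a count of genes within 1.5 times of the reported one was taken as kept), 98 lost and 42 gained a call, 79 moved and 34 changed sign, and the cause was not tested. *ME* at IM3h had 5 members called under each of its 15 alternatives. *RiboTag* libraries at IM24h and IM72h held 663808 to 4083376 counts outside *AY036118*, and some members had 0 counts there, for which the part of depth was not tested.

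Counts of members called changed by more than this as follows. In *RiboTag* at IM3h (5) the count was 2 with library totals, 1 with scaling by *Actb*, *Hsp90ab1* and *Rplp1*, 0 with 1 fit per fraction and 1 to 6 with a library left out. In *RiboTag* at IM24h (0) it was 1 with the threshold of the study. In *RiboTag* at IM72h (1) it was 0 without the filter and with 1 fit per fraction, and 0 to 2 with a library left out. From IM3h to IM24h in *RiboTag* (2) it was 0 with library totals, with the reference genes and with 1 fit per fraction, and 0 to 2 with a library left out. In *ME* at IM24h (4) it was 1 with the reference genes and 2 to 5 with a library left out. In *ME* at IM72h (5) it was 3 with the reference genes, 1 with the threshold of the study and 3 with 1 fit per fraction. From IM24h to IM72h in *ME* (3) it was 1 with the reference genes, 1 without the filter, 0 with the threshold of the study and 1 to 4 with a library left out. Between naïve fractions (2) it was 1 with the reference genes, and with library totals it stayed at 2 with other genes, *Azin1* and *Smox* in place of *Amd1* and *Sms*. For the difference between responses it was 2 with DESeq2 and with the threshold of the study and 0 to 1 with a library left out at IM3h (0), and 0 to 1 with a library left out at IM24h (0). At IM72h (1) that count was 5 with library totals, 2 with DESeq2, the reference genes, the threshold of the study or no rRNA-related genes, and 1 to 2 with a library left out. Smaller shifts were 6 with DESeq2 in *RiboTag* at IM3h, 5 with library totals or 1 fit per fraction in *ME* at IM24h, 4 to 5 with a library left out in *ME* at IM72h, 4 with DESeq2 or library totals from IM24h to IM72h in *ME*, and, between naïve fractions, 3 with DESeq2 and 2 to 3 with a library left out. The threshold of the study gave 6 in *RiboTag* at IM3h, 3 from IM3h to IM24h and 3 in *ME* at IM24h. With library totals the 5 in *ME* at IM24h held *Amd1* and *Sat1* but not *Sms*, and at IM72h *Sat1* was called in place of *Smox*.

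These log2 values changed sign. In *ME*, *Amd1* at IM24h was -0.24 with the reference genes and -0.23 summed with *Amd2*, and 0.35 at IM72h with library totals. *Smox* at IM3h was -0.0867 and *Sms* -0.0059 with library totals, and -0.24 and -0.16 with the reference genes, with which *Odc1* and *Sat1* at IM72h were -0.0223 and -0.32. In *RiboTag* at IM24h, *Azin1* was -0.36 with the reference genes, and *Odc1* was -0.81 with library totals, -1.44 with the reference genes and -0.033 to 0.32 with a library left out. *Amd1* and *Sat1* there ran from -0.55 to 0.0793 and from -0.75 to 0.21 with a library left out. In *RiboTag* at IM72h, *Odc1* was -1.45 with library totals, -1.41 with the reference genes and -0.0285 to 0.58 with a library left out, and *Amd1* summed with *Amd2* was 0.80. Between naïve fractions, *Odc1* was 0.51 and *Srm* 0.11 with library totals, and *Odc1* and *Sat1* ran from -0.46 to 0.0507 and from -0.47 to 0.50 with a library left out. In the difference between responses, *Sat1* at IM3h ran from -0.58 to 0.39 with a library left out. At IM24h *Sms* was -0.98 with library totals, -0.43 with the reference genes and -0.78 to 0.56 with a library left out, and *Amd1* summed with *Amd2* was 0.21. At IM72h *Amd1* was 0.0775 with DESeq2 and 0.0798 with its size factors, and 1.22 summed with *Amd2*.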
